A study of Mus musculus with 8 samples.

Results

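Chemokines are small secreted proteins that steer migrating cells, and chemokine receptors are the proteins that bind them. The family was taken from the gene table by symbol: every gene of the Ccl, Cxcl, Ccr, Cxcr and Ackr series, with Pf4, Ppbp, Cx3cl1, Xcl1, Xcr1 and Ccrl2, and with Ccr2 left out. Of 64 genes with such a symbol among the 56748 genes of the table, 54 had at least 10 counts summed over the 8 libraries and are the members described here. They comprise 37 ligands, 12 conventional receptors and 5 atypical receptors. The other 10 were Ccl1, Ccl19-ps1, Ccl21b, Ccl27b, Ccr4, Ccr6, Ccr8, Cxcr1, Cxcr2 and Xcl1, of which 6 held no count in any library.

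All mice were wild-type (WT) females whose shaved back skin, near the tail base, was treated once a day for 3 days. The 4 Aldara libraries come from mice that received about 62.5 mg of Aldara, a cream with 5% imiquimod, an agonist of Toll-like receptor 7. The 4 Vehicle libraries come from mice that received the same volume of a control cream, Boots Aqueous Cream mixed with 10% Vaseline Lanette Cream. The inguinal fat pads were taken 24 h after the last dose, cells were pulled out with anti-F4/80 magnetic beads, and each library pooled the cells of 6 fat pads, around 30000 cells. Preparations were used where over 90% of cells were F4/80+CD64+ by flow cytometry. An age is not given in the labels. The labels also do not say which animals fed each pool, and p-values therefore cover only the spread from pool to pool. The comparison of Aldara with Vehicle asks how the RNA of this fat pad fraction differs after peripheral skin inflammation. What the creams differ in beside imiquimod cannot be told apart from it.

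Chemokines are sorted by the cysteines near the start of the mature protein, which are adjacent in CC ligands and parted by 1 residue in CXC ligands. Most conventional receptors couple to inhibitory G proteins and drive directed migration, whereas atypical receptors bind or scavenge ligands without that coupling. In fat and skin-draining tissue, monocyte-attracting and neutrophil-attracting ligands recruit blood leukocytes, and Cxcl13 is best known for guiding Cxcr5-bearing B cells into lymphoid follicles.

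The stretch around these cysteines is shown for 6 of the 7 genes that passed the test, because it is what separates the CC from the CXC ligands named throughout. The sequences are coding sequences of the GENCODE M21 transcripts on GRCm38, 5′ to 3′, with the cysteine codons in capitals. The seventh gene, Cxcl17, is not shown.
Cxcl13: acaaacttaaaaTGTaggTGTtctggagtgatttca
Cxcl9: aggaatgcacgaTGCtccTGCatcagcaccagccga
Cxcl15: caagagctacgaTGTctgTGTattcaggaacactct
Ccl12: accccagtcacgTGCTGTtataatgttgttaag
Ccl4: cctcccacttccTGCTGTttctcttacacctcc
Ccl5: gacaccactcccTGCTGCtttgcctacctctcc
In Cxcl13, Cxcl9 and Cxcl15 another codon parts the capitals, and in Ccl12, Ccl4 and Ccl5 the capitals are adjacent.

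Promoters are shown for the 4 of these 7 genes that had an entry in the RefSeq table of GRCm38.p6, since they let the genes that moved in either direction be set side by side. Each is the 250 bases before the annotated start, on the strand of the gene. They lie at chr5:95956689-95956938 (Cxcl13, plus strand), chr5:92328080-92328329 (Cxcl9, minus strand), chr5:90794284-90794533 (Cxcl15, plus strand) and chr11:82101595-82101844 (Ccl12, plus strand). Capitals mark matches to 4 letter patterns searched on both strands: GGGNNTTCC (kappa-B), the core promoter box TATAAA, the interferon-stimulated response element (GAAA repeated after a gap of any 2 bases) and TTCNNNGAA (interferon-gamma-activated site).
Cxcl13: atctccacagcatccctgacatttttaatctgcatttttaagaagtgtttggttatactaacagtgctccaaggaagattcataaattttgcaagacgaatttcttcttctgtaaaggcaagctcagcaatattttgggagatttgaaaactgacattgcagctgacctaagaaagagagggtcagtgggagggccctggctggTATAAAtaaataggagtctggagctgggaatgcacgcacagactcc
Cxcl9: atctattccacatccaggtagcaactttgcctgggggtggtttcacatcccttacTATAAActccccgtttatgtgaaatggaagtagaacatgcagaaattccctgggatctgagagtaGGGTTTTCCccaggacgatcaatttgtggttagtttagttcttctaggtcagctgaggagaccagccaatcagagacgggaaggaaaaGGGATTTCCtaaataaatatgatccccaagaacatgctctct
Cxcl15: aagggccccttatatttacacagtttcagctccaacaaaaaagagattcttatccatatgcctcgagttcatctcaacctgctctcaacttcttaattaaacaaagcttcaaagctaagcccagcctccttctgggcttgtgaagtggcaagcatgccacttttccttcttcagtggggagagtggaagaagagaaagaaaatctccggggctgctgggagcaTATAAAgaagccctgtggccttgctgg
Ccl12: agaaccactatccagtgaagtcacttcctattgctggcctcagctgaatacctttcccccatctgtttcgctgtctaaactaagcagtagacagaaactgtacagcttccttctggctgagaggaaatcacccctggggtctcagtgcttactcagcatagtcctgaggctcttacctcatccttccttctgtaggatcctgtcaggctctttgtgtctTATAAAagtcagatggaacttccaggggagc
All 4 promoters held a TATAAA match somewhere in the 250 bases, a pattern present in 12.4% of the 32851 promoters of the table. The matches did not share a position. They lay nearest the start in Cxcl15 and Ccl12, further from it in Cxcl13 and by far the furthest in Cxcl9. Whether any of them acts as a core promoter box was not tested. Cxcl9 alone among the 4 also held kappa-B matches, 2 in number, a pattern found in 4.98% of promoters. Neither interferon pattern matched in these 4 windows, and over all promoters they were present in 2.98% (response element) and 7.02% (activated site). The search took these exact letters alone, so an interferon element spelled otherwise would not be marked, in Cxcl9 or elsewhere. A match is a run of letters and not a shown binding site.

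Depth ranged from 19537607 to 34471508 counts per library. Levels are in CPM (counts scaled to library size, here with TMM factors), and a count of 0 is printed as 0. As a floor for reading such zeros, 3 counts were worth 0.087 to 0.154 CPM by library total, without TMM factors. Such floors speak of counting error alone. The labelled cell type was checked against 17 macrophage genes, all detected, whose summed level was 1495 to 3199 CPM in Vehicle and 3805 to 10495 CPM in Aldara, with 13 of 17 past the test and higher. The median log2 fold change of the 17 was 1.60. Adgre1, which encodes F4/80, rose from 82.5 ± 20.4 to 967 ± 476 CPM (SD, n = 4 each; log2 fold change 3.55). Fcgr1, which encodes CD64, overlapped between groups and did not pass (19.7 ± 1.85 to 26.5 ± 12.3 CPM, adjusted p = 0.436). Cd68, Csf1r and Mertk did not pass either. In contrast, 9 epithelial genes summed to 12421 to 17085 CPM in Vehicle and 12255 to 15757 CPM in Aldara. That was above the macrophage sum in every library, with 0 of 9 past the test. Of 5 fibroblast genes 4 fell (sums 126 to 333 against 47.9 to 96.7 CPM). In such mixed RNA, fewer cells of a type and less RNA per cell cannot be told apart.

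After Aldara, 4 ligands rose: Cxcl13, Cxcl9, Ccl4 and Ccl5. Another 3 ligands fell: Cxcl15, Ccl12 and Cxcl17. Cxcl13 moved furthest upward, from 0.281 to 1.30 CPM in Vehicle to 7.53 to 25.9 CPM in Aldara, and Cxcl15 furthest downward, from 116 to 284 CPM to 25.7 to 43.1 CPM. No receptor passed the test, with 3 of 10 at an unadjusted p under 0.05 in edgeR and 2 of 10 past the adjusted threshold in DESeq2, among them Ccr1, lower, in a fit that called 9.18% of all tested genes higher and 7.14% lower.

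In all, 39 members had counts enough to be tested, and 7 of them passed (17.9%), against 10.8% of the 16780 genes tested. Among all tested genes 6.98% rose and 3.86% fell, so 4 rising and 3 falling members stand beside a background of similar order. The median log2 fold change was 0.03 over the tested members and 0.01 over all tested genes. With replicate number as a block, which pairs Vehicle and Aldara libraries of the same number, 8 members rose and 7 fell (38.5%), against 9.21% and 6.14% of all tested genes. Groups did not overlap for 5 members higher and 4 lower in Aldara, 23.1% of 39 against 17.8% of all tested genes (9.97% higher and 7.79% lower). A positive log2 fold change means higher in Aldara, SE is its standard error, and adjusted p-values come from edgeR's quasi-likelihood test over all tested genes unless another fit is named.

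**Figure D1:**
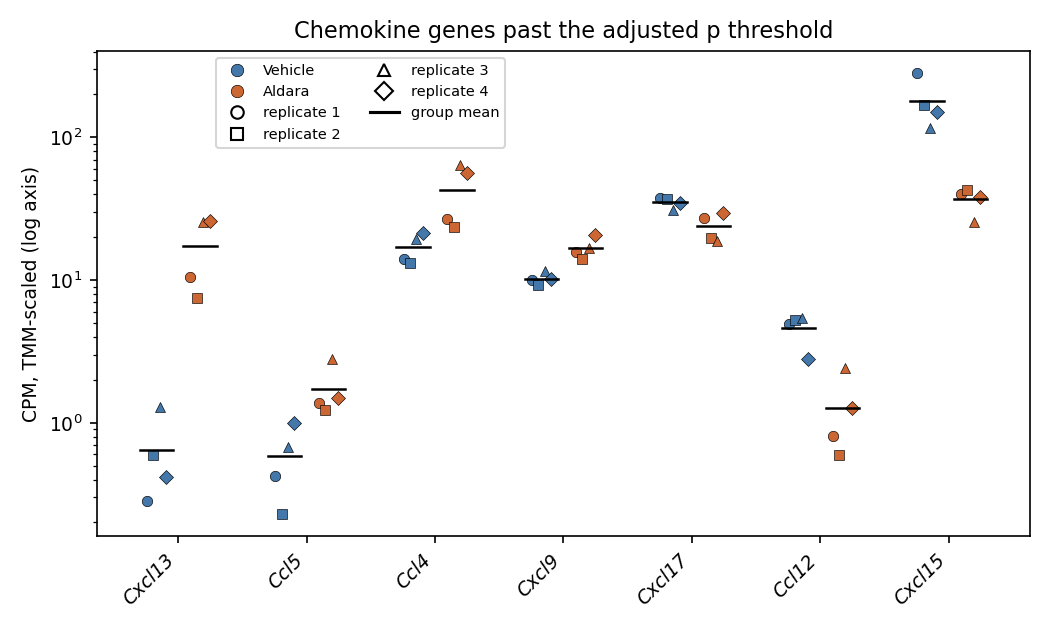
Level of each of the 7 members that passed the test in each library, as TMM-scaled CPM on a log axis (blue, Vehicle; orange, Aldara; shapes, replicate numbers; bars, group means). For every gene shown, the 4 Vehicle points and the 4 Aldara points occupy separate ranges, widest apart for Cxcl13 and Cxcl15.

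Cxcl13 (ENSMUSG00000023078, chr5:95956951-95961068) measured 0.281, 0.594, 1.30 and 0.418 CPM in Vehicle replicates 1 to 4. In Aldara replicates 1 to 4 it measured 10.5, 7.53, 25.6 and 25.9 CPM. The lowest Aldara library lay above the highest Vehicle library, and replicates 3 and 4 of Aldara were above the other two. The log2 fold change was 4.66 (SE 0.57, adjusted p = 0.00272). Per kilobase of exon, Cxcl13 went from 0.563 to 15.1 CPM, and in Aldara it stood near Cxcl16 and Cxcl10, at 14.9 and 13.9 CPM per kilobase. The receptor gene Cxcr5, through which Cxcl13 acts, held 16 counts summed over Vehicle and 32 summed over Aldara and was too low to test.

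Markers of B cells, the main responders to Cxcl13, and a mixed list of lymph node stroma and high endothelial venule genes stood as follows. The 5 B cell genes summed to 0.411 to 0.996 CPM in Vehicle and 3.80 to 9.10 CPM in Aldara. That sum was carried by Cd79b, a signalling chain of the B cell receptor, which rose (log2 fold change 3.84, SE 0.40, adjusted p = 0.000956), whereas Cd79a, Ms4a1 and Pax5 each stayed at or below 0.479 CPM in every library. The 5 genes of the mixed list (Madcam1, Glycam1, Chst4, Cr2 and Fcer2a) summed to 0.328 to 1.07 CPM in Vehicle and 0.585 to 1.07 CPM in Aldara. Glycam1 was at 0 in all 8. This list does not single out the cells that make Cxcl13. Macrophage genes moved with Cxcl13. Set against the summed macrophage list within each library (log2 of CPM plus 0.01, minus log2 of the list sum), Cxcl13 was still higher in Aldara by 3.16, with groups that did not overlap.

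The other CXC ligands are tissue-made chemokines with diverse targets. Cxcl17, a mucosal chemokine (ENSMUSG00000060188, chr7:25400053-25412886), measured 37.4, 37.1, 31.2 and 34.8 CPM across Vehicle and 27.5, 19.6, 18.7 and 29.4 CPM across Aldara. Every Aldara library was below every Vehicle library, by a small margin. It fell by 0.56 on the log2 scale (SE 0.15, adjusted p = 0.0356), a call that was lost in 5 of the 8 fits that left out 1 library (Vehicle replicates 1, 2 and 4, Aldara replicates 2 and 3), with adjusted p up to 0.0907.

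Cxcl12, the stromal ligand of Cxcr4, measured 85.2, 56.8, 42.1 and 52.1 CPM across Vehicle and 57.5, 35.2, 41.7 and 43.9 CPM across Aldara (log2 fold change −0.40, adjusted p = 0.294). Cxcl14, an epithelial chemokine, measured 214, 199, 151 and 147 CPM across Vehicle and 189, 161, 179 and 127 CPM across Aldara (−0.12, adjusted p = 0.70). The groups overlapped for both. Cxcl16, the membrane-bound ligand of Cxcr6, averaged 37.1 ± 4.89 CPM in Vehicle and 44.9 ± 3.91 CPM in Aldara (SD, n = 4 each; adjusted p = 0.137), and 16.9% of its 50-base windows also occur in Zmynd15, a gene that overlaps it.

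Among ligands that attract neutrophils, the lung and epithelial chemokine Cxcl15 fell. Cxcl15 (ENSMUSG00000029375, chr5:90794534-90803067) measured 284, 169, 116 and 151 CPM in Vehicle. In Aldara it measured 40.2, 43.1, 25.7 and 38.3 CPM. All 4 Aldara libraries were far below the lowest Vehicle library, and Vehicle replicate 1 stood above the other Vehicle libraries. The difference on the log2 scale was −2.29 (SE 0.28, adjusted p = 0.00268). Per kilobase it went from 84.6 to 17.3 CPM. The epithelial list, whose cells are a known source of Cxcl15, had 0 of 9 genes past the test, with a median log2 fold change of 0.01. The fibroblast sums fell alongside Cxcl15. The part of either cell type, or of a subset of the epithelium, in this result was not tested.

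All 4 tested members of the group had a log2 fold change below 0 (median −1.12), and the other 3 did not pass the test. Cxcl2, made by activated macrophages, measured 98, 111, 197 and 132 CPM across Vehicle and 56.1, 45.2, 78.1 and 119 CPM across Aldara. Its groups overlapped through Aldara replicate 4 (log2 fold change −0.85, SE 0.32, adjusted p = 0.123), and with the replicate block it passed as lower (adjusted p = 0.0238). Cxcl1, a related neutrophil attractant, measured 95.2, 76.8, 113 and 73.3 CPM across Vehicle and 78.3, 50.8, 52.5 and 80.6 CPM across Aldara (−0.45, adjusted p = 0.168).

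Cxcl3, a close relative of Cxcl2, averaged 0.881 ± 0.264 CPM in Vehicle and 0.339 ± 0.276 CPM in Aldara (SD, n = 4 each; adjusted p = 0.125). Cxcl2 and Cxcl3 share sequence, with 5.84% of the 50-base windows of Cxcl2 found elsewhere. Cxcl5, an epithelial neutrophil attractant, had 115 counts in Vehicle and 30 in Aldara and was not tested, and its Vehicle level was 3.84 CPM in replicate 1 against 0.503 CPM or less in the others. The platelet chemokine Ppbp, also too low to test, went the other way, with 13 counts in Vehicle and 37 in Aldara and every Aldara library above every Vehicle library. Cxcr1 and Cxcr2, the neutrophil receptors for most of this group, were below the count minimum, at 0 and 4 counts in all. Among neutrophil markers Csf3r, the receptor of granulocyte colony-stimulating factor, rose (log2 fold change 2.10), and Ly6g was at 0 in all 8 libraries.

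The CXCR3 ligands attract activated T and natural killer cells, and Cxcl9 is an interferon-gamma target. Cxcl9 (ENSMUSG00000029417, chr5:92321347-92328079) measured 9.94, 9.23, 11.5 and 10.1 CPM across Vehicle and 15.7, 13.9, 16.8 and 20.8 CPM across Aldara. All Aldara libraries were above all Vehicle libraries, which lay close together. Cxcl9 rose by a log2 fold change of 0.72 (SE 0.14, adjusted p = 0.0104), and Cxcl9 passed under every alternative fit that was run.

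Cxcl10, its neighbour and an interferon target too, averaged 29.2 ± 4.16 CPM in Vehicle and 31.4 ± 5.88 CPM in Aldara (SD, n = 4 each; log2 fold change 0.10, adjusted p = 0.724). Whether Cxcl9 and Cxcl10 differ in their response was not tested. Pf4, a chemokine of platelets and tissue macrophages, measured 35.1, 43.2, 69.0 and 39.7 CPM across Vehicle and 31.4, 45.7, 79.6 and 64.8 CPM across Aldara, with overlapping groups (0.24, adjusted p = 0.676). Cxcl11 had 36 and 33 counts and was not tested. Cxcr3, the receptor of these ligands, averaged 1.89 ± 0.568 and 2.74 ± 0.852 CPM (adjusted p = 0.292).

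Monocyte-attracting CC ligands did not move together. Ccl12 (ENSMUSG00000035352, chr11:82101845-82103400), a mouse ligand of the same receptor as Ccl2, measured 4.92, 5.25, 5.39 and 2.79 CPM across Vehicle and 0.811, 0.598, 2.43 and 1.28 CPM across Aldara. The groups did not overlap, though the highest Aldara library and the lowest Vehicle library were close. The log2 fold change was −1.84 (SE 0.40, adjusted p = 0.0164), and without Aldara replicate 4 the adjusted p was 0.0543.

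Ccl2, the archetypal monocyte attractant, measured 115, 106, 167 and 115 CPM across Vehicle and 131, 121, 235 and 292 CPM across Aldara. The groups overlapped through Vehicle replicate 3 (log2 fold change 0.63, SE 0.29, adjusted p = 0.205). Ccl7, which acts on the same receptor, measured 87.7, 77, 97.1 and 90.3 CPM across Vehicle and 102, 98.8, 234 and 208 CPM across Aldara. For Ccl7 every Aldara library was above every Vehicle library, and replicates 3 and 4 accounted for most of the distance. Its log2 fold change of 0.87 (SE 0.28) missed the threshold (adjusted p = 0.0806) and passed with the replicate block (0.77, adjusted p = 0.0396). Ccl8, a ligand made by resident macrophages among others, measured 26.6, 33.4, 45.3 and 33.0 CPM across Vehicle and 11.1, 16.5, 33.6 and 23.4 CPM across Aldara. It was lower in Aldara within each of the 4 replicate numbers while the groups overlapped (−0.71, adjusted p = 0.181), and it passed with the replicate block (−0.79, adjusted p = 0.00866).

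The inflammatory CC ligands Ccl3, Ccl4, Ccl5, Ccl6 and Ccl9 attract monocytes, macrophages and T cells. All 5 had a log2 fold change above 0 (median 1.10), and 2 of 5 passed. Ccl4 (ENSMUSG00000018930, chr11:83662584-83664683) measured 14.2, 13.3, 19.4 and 21.5 CPM across Vehicle and 26.9, 23.7, 63.9 and 56.5 CPM across Aldara. The lowest Aldara library lay just above the highest Vehicle library. The log2 fold change was 1.32 (SE 0.33, adjusted p = 0.0366). This call was lost with limma-voom (adjusted p = 0.0556), without the filter on low counts (0.0898) and in 6 of the 8 fits that left out 1 library (each Vehicle replicate, Aldara replicates 3 and 4), with adjusted p up to 0.12.

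Ccl5 (ENSMUSG00000035042, chr11:83525778-83530518), a T cell and macrophage product, measured 0.422, 0.228, 0.678 and 0.996 CPM across Vehicle and 1.37, 1.24, 2.80 and 1.49 CPM across Aldara. Its groups did not overlap, and Aldara replicate 3 stood above the other Aldara libraries. The log2 fold change was 1.51 (SE 0.43, adjusted p = 0.0447). Leaving out any of Vehicle replicates 1, 2 and 3 or Aldara replicates 2, 3 and 4 ended this call, with adjusted p up to 0.135. T cell genes (6 in the list) summed to 1.78 to 3.50 CPM in Vehicle and 2.26 to 4.36 CPM in Aldara, with Cd4 the 1 gene high enough to test and not past it. The 4 natural killer cell genes moved with Ccl5 and Cxcl9: they summed to 0.45 to 1.02 CPM in Vehicle and 1.62 to 2.47 CPM in Aldara, without overlap, and Gzma, the 1 gene high enough to test, did not pass (log2 fold change 1.48, adjusted p = 0.0781). The part of either cell type in the results was not tested.

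Ccl3, the neighbour of Ccl4 and a fellow macrophage product, measured 9.19, 8.64, 16.5 and 16.3 CPM across Vehicle and 16, 15.9, 34.1 and 43.5 CPM across Aldara. The groups touched, with the lowest Aldara libraries just under the highest Vehicle libraries, and each Aldara library was above the Vehicle library of its number. Without the block Ccl3 did not pass (log2 fold change 1.10, adjusted p = 0.0953), and with it Ccl3 did (1.05, adjusted p = 0.00101). Ccl6 and Ccl9, ligands of Ccr1 that myeloid cells make constitutively, were more abundant and more variable. Ccl6 measured 144, 218, 265 and 145 CPM across Vehicle and 149, 196, 383 and 415 CPM across Aldara (0.57, adjusted p = 0.351). Ccl9 measured 73.9, 115, 143 and 89.7 CPM across Vehicle and 78.9, 127, 264 and 290 CPM across Aldara (0.85, adjusted p = 0.21). In both genes replicates 3 and 4 of Aldara were high and the other Aldara libraries lay within the Vehicle range.

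**Figure D2:**
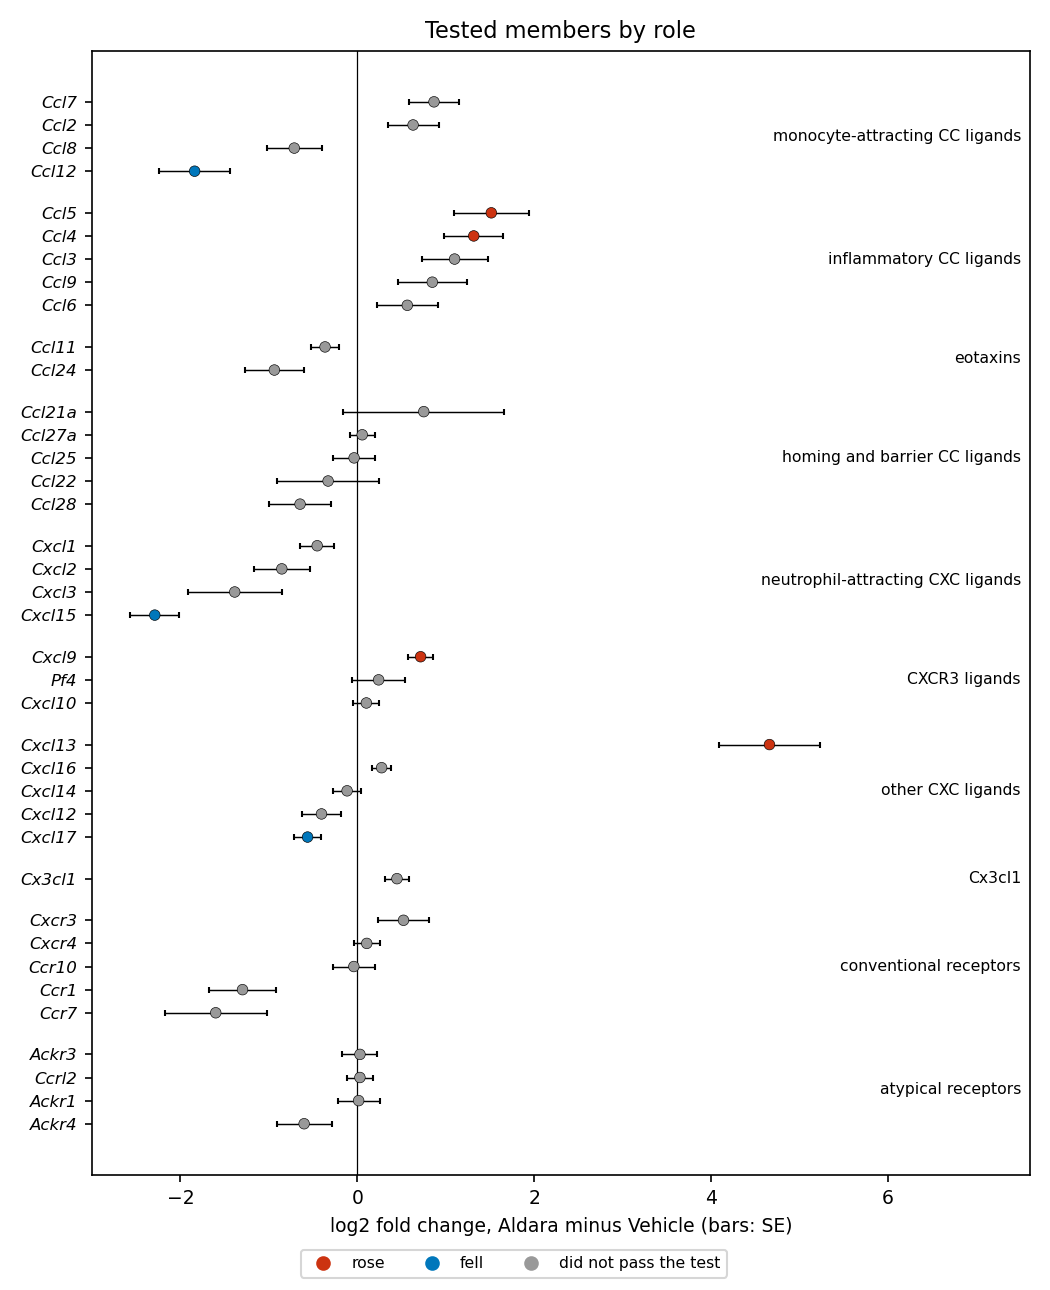
Log2 fold change (Aldara minus Vehicle, horizontal axis) with its SE for tested members, grouped by role (red, rose; blue, fell; grey, did not pass the test). The 5 inflammatory CC ligands all lie right of 0 and the 4 neutrophil-attracting CXC ligands all lie left of 0, while Cxcl13 stands apart at 4.66.

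Eotaxins attract eosinophils through Ccr3. Ccl24, the eotaxin made by alternatively activated macrophages, measured 16.1, 19.7, 38.9 and 21.2 CPM across Vehicle and 8.33, 11.8, 20 and 10.1 CPM across Aldara. It was lower in Aldara within each replicate number, with groups that overlapped (log2 fold change −0.94, adjusted p = 0.11), and it passed with the replicate block (−0.93, adjusted p = 0.000815). Ccl11, a fibroblast product, measured 10.4, 9.05, 9.97 and 10.2 CPM across Vehicle and 8.80, 5.54, 8.44 and 7.98 CPM across Aldara. Its groups did not overlap and it did not pass (−0.36, adjusted p = 0.177). Ccl26 held 32 counts in Vehicle and 3 in Aldara, with every Aldara library below every Vehicle library, and was too low for the test. The receptor Ccr3, with 8 and 49 counts, was too low as well. Without the filter on low counts Ccr3 passed as higher (log2 fold change 2.86, adjusted p = 0.0253) and Ccl26 did not pass (adjusted p = 0.0679). Ccr3 also passed as higher in the fits without Vehicle replicate 2, 3 or 4 and without Aldara replicate 1. Its level exceeded 0.171 CPM only in Aldara replicates 2, 3 and 4 (0.478, 0.782 and 0.745 CPM). The filter could thus admit Ccr3 only through the group where it is high. These fits also reuse the same libraries, so they are no separate support. The 4 eosinophil genes summed to at most 0.412 CPM in any library, and Ear6 was at 0 in all.

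The homing and barrier CC ligands place lymphocytes and dendritic cells in lymph node, gut and skin. None of the 5 tested passed, and all had an unadjusted p above 0.05. Ccl21a, the lymphatic ligand of Ccr7, ranged from 0 to 1.89 CPM in Vehicle and from 0.12 to 4.10 CPM in Aldara, and 71.6% of its 50-base windows occur in other genes, so its level is uncertain. Ccl27a averaged 9.04 ± 0.854 CPM in Vehicle and 9.39 ± 1.23 CPM in Aldara (45% of windows shared). Ccl25 averaged 3.86 ± 1.31 and 3.77 ± 0.367 CPM, Ccl22 0.533 ± 0.359 and 0.430 ± 0.163 CPM, and Ccl28 0.989 ± 0.400 and 0.632 ± 0.145 CPM (SD, n = 4 each). Ccl17, Ccl19, Ccl20 and the pseudogene Ccl19-ps3 had 16 to 47 counts in all and were not tested.

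Cx3cl1, the membrane-anchored ligand of Cx3cr1, measured 197, 228, 197 and 183 CPM across Vehicle and 319, 291, 280 and 209 CPM across Aldara. Only Aldara replicate 4 fell within the Vehicle range. Its log2 fold change of 0.45 (SE 0.13) lay at the threshold (adjusted p = 0.0504), and with the replicate block it passed (adjusted p = 0.018). Cx3cr1, a receptor of monocytes and tissue macrophages outside the symbol rule, averaged 3.20 ± 1.55 CPM in Vehicle and 2.60 ± 0.332 CPM in Aldara (SD, n = 4 each; adjusted p = 0.568).

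Of the conventional receptors 6 were tested. Ccr1, a receptor for Ccl3, Ccl5, Ccl6 and Ccl9 on monocytes and macrophages, measured 12.1, 15.9, 22.4 and 20.7 CPM across Vehicle and 3.16, 4.94, 8.69 and 12.3 CPM across Aldara. It was lower in Aldara within each replicate number, and the groups overlapped through Aldara replicate 4. Without the block Ccr1 did not pass (log2 fold change −1.30, SE 0.38, adjusted p = 0.0624), and with it Ccr1 did (−1.40, adjusted p = 0.0019). Its ligands Ccl3, Ccl5, Ccl6 and Ccl9 all had log2 fold changes on the other side of 0.

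Cxcr4, the receptor of Cxcl12, measured 41.1, 49.3, 70.6 and 57.9 CPM across Vehicle and 55.8, 53.0, 63.4 and 64.0 CPM across Aldara. The Aldara libraries lay inside the Vehicle range (log2 fold change 0.11, adjusted p = 0.712). Ccr7, the lymph node homing receptor of dendritic cells, averaged 0.721 ± 0.274 CPM in Vehicle and 0.229 ± 0.236 CPM in Aldara (SD, n = 4 each; −1.60, adjusted p = 0.101). Ccr10 averaged 1.24 ± 0.203 and 1.21 ± 0.119 CPM (adjusted p = 0.943). The receptors Ccr1l1, Ccr3, Ccr9, Cxcr5, Cxcr6 and Xcr1 had 19 to 64 counts in all and were not tested. For Ccr3 and Xcr1 the groups did not overlap, with higher levels in Aldara. Xcr1 held 0 or 1 count in each Vehicle library and 2 to 7 in each Aldara library, so its separation rests on a few counts. Of the 15 kept members not tested, 3 were higher and 1 was lower without overlap. The share over all genes this low was not taken.

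The atypical receptors bind chemokines without the usual signalling, and none of the 4 tested passed. Ackr1, which holds chemokines on endothelium and red cells, averaged 39.8 ± 12.2 CPM in Vehicle and 40.2 ± 9.39 CPM in Aldara. Ackr3, the scavenger of Cxcl12, averaged 27.2 ± 5.44 and 27.7 ± 6.76 CPM, and Ccrl2 44.6 ± 7.31 and 45.6 ± 8.58 CPM (SD, n = 4 each). Their log2 fold changes were 0.02, 0.03 and 0.03, and 20.4% of the 50-base windows of Ackr1 also occur in Cadm3. Ackr4, the scavenger of Ccl19, Ccl21 and Ccl25, averaged 3.78 ± 1.06 and 2.48 ± 0.961 CPM (−0.60, adjusted p = 0.254). Ackr2 had 15 counts and was not tested.

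**Figure D3:**
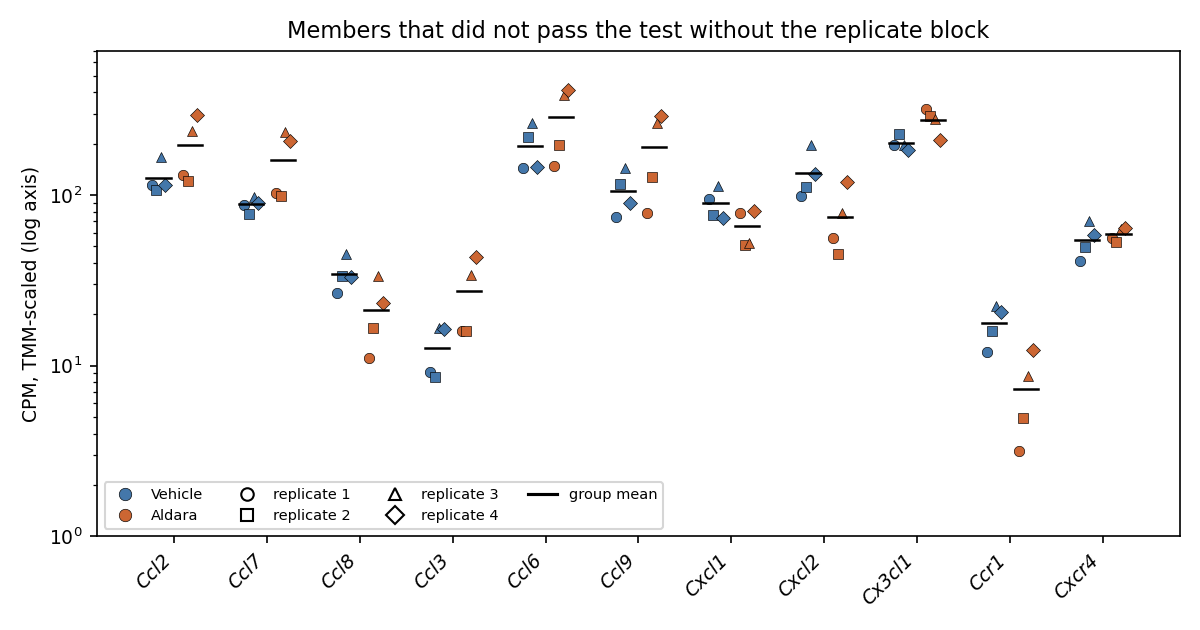
Level of 11 members that did not pass the test without the replicate block, in each library, as TMM-scaled CPM on a log axis (blue, Vehicle; orange, Aldara; shapes, replicate numbers; bars, group means). Ccl2, Ccl3, Ccl8, Ccl9, Cxcl2, Cx3cl1 and Ccr1 keep the order of the groups within every replicate number although their groups overlap. Of these, Ccl2 and Ccl9 did not pass with the replicate block either (adjusted p = 0.107 and 0.149). Replicates 3 and 4 are the high Aldara libraries for Ccl6 and Ccl9.

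Many chemokine genes are neighbours that arose by duplication. On chromosome 11, from 82035571 to 82116799, the order Ccl2, Ccl7, Ccl11, Ccl12, Ccl8 had log2 fold changes of 0.63, 0.87, −0.36, −1.84 and −0.71. The first 2 genes of this run were above 0 and the other 3 below. About a megabase further along, from 83525778 to 83664683, Ccl5, Ccl9, Ccl6, Ccl3 and Ccl4 had log2 fold changes of 1.51, 0.85, 0.57, 1.10 and 1.32, all above 0. On chromosome 5, from 90759360 to 90905938, the tested genes Pf4, Cxcl3, Cxcl15, Cxcl1 and Cxcl2 had values of 0.24, −1.39, −2.29, −0.45 and −0.85, all below 0 except Pf4. Of the 50-base windows of Ccl12, Cxcl13, Ccl4, Ccl5 and Cxcl17 none occurred in another gene, and the share was 0.53% for Cxcl15 and 0.472% for Cxcl9. Exons of Ackr1, Ackr4, Ccl25, Ccl27a, Cxcl10 and Cxcl16 overlap another annotated gene, so their levels are uncertain in libraries that do not mark strand. The same holds for the counts of Ccr9, Cxcl11 and Cxcr5, which were not tested.

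**Figure D4:**
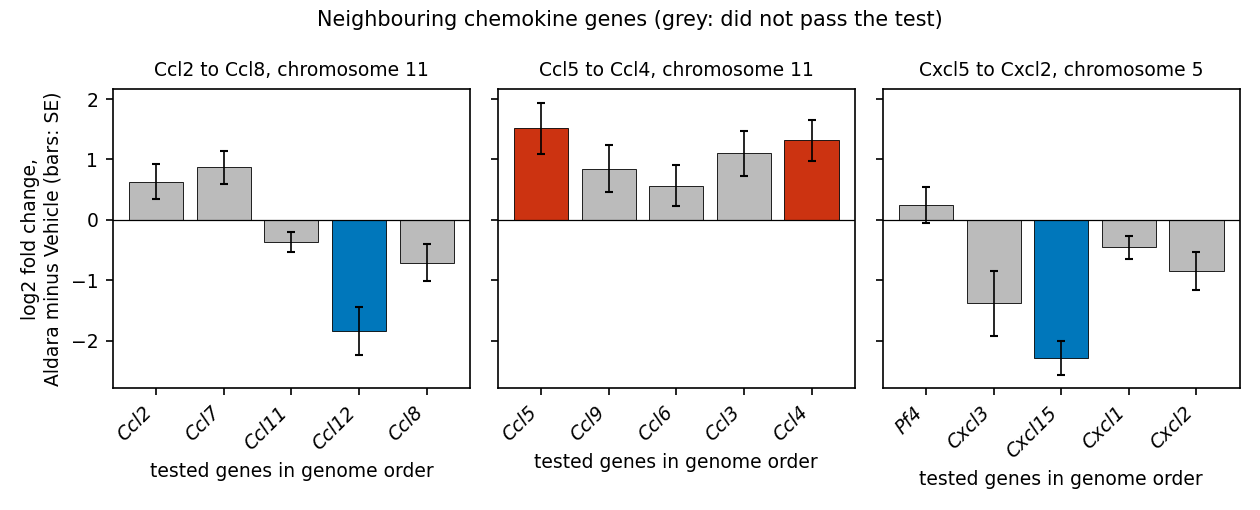
Log2 fold change (Aldara minus Vehicle) with its SE for the tested genes of 3 chemokine gene clusters, in genome order from left to right (red, rose; blue, fell; grey, did not pass the test). The Ccl2 to Ccl8 run changes sign along its length, the Ccl5 to Ccl4 run lies above 0, and in the Cxcl5 to Cxcl2 run only Pf4 lies above 0.

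Since the macrophage genes rose, each of the 23 members given by library was also set against the summed macrophage list of its own library. On log2 scale that sum was 1.60 higher in Aldara. Relative to it, 1 member, Cxcl13, was higher with groups that did not overlap, 15 were lower with groups that did not overlap, and 7 overlapped. Over all tested genes 0.56% were higher and 66.8% lower in this way, since the divisor itself rose, so being lower on this scale sets no member apart: Cxcr4, at a log2 fold change of 0.11 in CPM, was lower by 1.46. Ccl4 and Ccl5 were among the overlapping ones, at −0.38 and 0.07 relative to the list. Ccl2, Ccl6, Ccl7 and Ccl9, whose CPM was higher in Aldara on average, were lower relative to the list by 1.04, 1.11, 0.83 and 0.89. Ccl12 and Cxcl15 were lower relative to it by 3.59 and 3.83. These ratios are a description, and which cells made each chemokine was not tested.

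**Figure D5:**
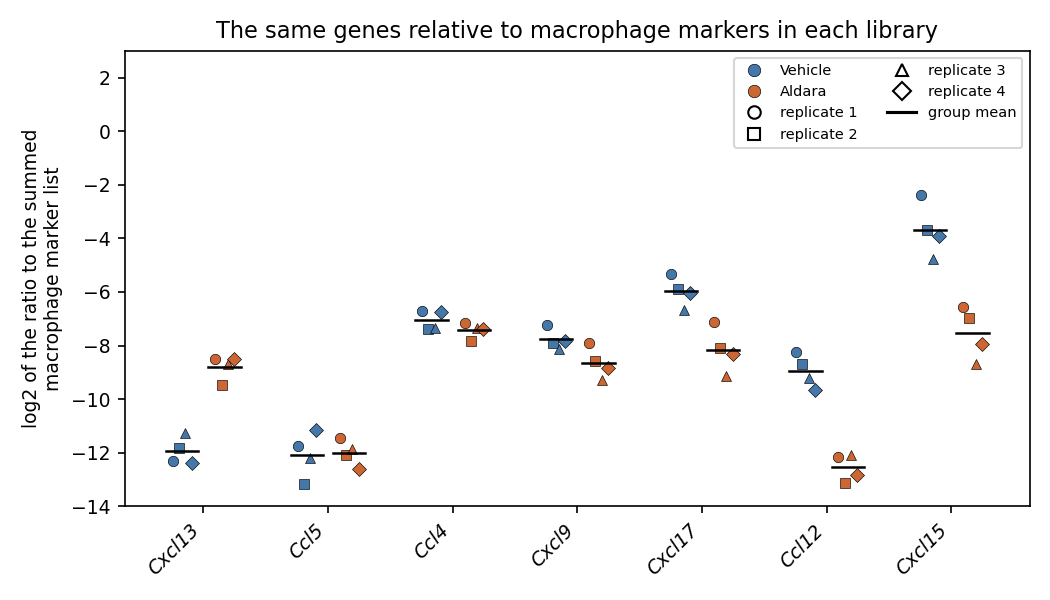
Log2 of the ratio of each of the 7 members that passed the test to the summed macrophage list in the same library (blue, Vehicle; orange, Aldara; shapes, replicate numbers; bars, group means). Cxcl13 is higher in Aldara on this scale, Ccl4, Ccl5 and Cxcl9 overlap, and Ccl12, Cxcl15 and Cxcl17 are lower.

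Compared per kilobase of exon, the most abundant members in Vehicle were Ccl2, Ccl7 and Ccl6, at 111, 110 and 107 CPM per kilobase. Next came Cxcl14 at 97.3 and Cxcl15 at 84.6, then Ccl8, Cxcl2 and Pf4 at 67.7, 65 and 64.8. In Aldara the leading genes were Ccl7, Ccl2 and Ccl6 at 201, 171 and 159 CPM per kilobase, followed by Cxcl14 at 89.8. The order among the leading 3 was within the spread between libraries in both groups. Among receptors, Cxcr4 led in both groups (30.3 and 32.7 CPM per kilobase), with Ackr1 next (28.3 and 28.6).

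Downstream of the receptors, 50 genes of chemokine signalling and processing, none of them a member, were all tested. Of these, 18 rose (36%, against 6.98% of all tested genes) and 1 fell (2%, against 3.86%), and the median log2 fold change was 0.51 against 0.01 over all tested genes. Rac2, the blood-cell GTPase of the migration machinery, rose from 19.5 ± 2.10 to 241 ± 120 CPM (SD, n = 4 each; log2 fold change 3.62, adjusted p = 0.00148). Pik3r5, a subunit of the PI3K gamma complex, rose from 14.4 ± 2.06 to 92.2 ± 44.9 CPM (2.68, adjusted p = 0.0033). Their Aldara libraries were all above their Vehicle libraries. Several of these genes mark blood cells in general, and the macrophage sum rose with them; its part in their change was not tested.

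Adam10, a sheddase that cuts Cx3cl1 and Cxcl16 from the membrane, was the 1 gene of this list that fell, from 617 ± 46.9 to 461 ± 19.2 CPM (SD, n = 4 each; log2 fold change −0.42, adjusted p = 0.0173). Without Vehicle replicate 2 or Aldara replicate 3 its adjusted p was 0.053 or 0.0567. With the replicate block 23 genes of the list rose and 4 fell, beside 9.21% and 6.14% of all tested genes. Cmklr1, the chemerin receptor, averaged 27.3 ± 3.84 and 39.2 ± 14.4 CPM (adjusted p = 0.216), and its ligand Rarres2 1.94 ± 0.682 and 1.77 ± 0.545 CPM (adjusted p = 0.846).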

How the data were processed

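RNA of F4/80-enriched fat pad cells was amplified with a SMARTer ultra-low-input kit after poly-A enrichment, per the labels' protocols. The kit does not mark strand, so reads of overlapping or antisense genes cannot be told apart. The authors deposited whole-number read counts per Ensembl gene for 8 libraries. The submitters' processing notes name HISAT2 2.0.5, featureCounts 1.5.0-p3, DESeq2 and mm10, and for how reads were assigned to genes the sources used here give no options.

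Of 56748 genes, 52073 identifiers (91.8%) had a symbol in GENCODE M21, which also gave coordinates and exon lengths on GRCm38, the assembly of mm10. Counts were tested with edgeR 4.0.16 in R 4.3.3: filterByExpr left 16780 genes, TMM factors were 0.957 to 1.03, and the robust quasi-likelihood F test was adjusted by Benjamini-Hochberg with a threshold of 0.05. Alternatives were upper-quartile and RLE factors, DESeq2 1.42.0, limma-voom (limma 3.58.1), no filter beyond 10 counts, the replicate block, and each library left out.

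The labels give both groups replicate numbers 1 to 4. Deviations from the group means correlated between same-numbered libraries at 0.228, 0.108, 0.167 and 0.218. Between libraries of unlike number they correlated at −0.216 to 0.0819, the highest near the 0.108 of replicate 2. The numbers were taken to pair the libraries on these values. The pairing comes from them and not from a stated shared batch, and passes with the replicate block rest on it. The closest libraries of a group still had a chi-square of 18.2 for each degree of freedom, so none was a duplicate. On simulated counts for Aldara against Vehicle (16780 genes, 200 changed), the fit recovered 68.7% of changes of 1 (log2) and 93.9% of changes of 2 with 0 sign errors, and 6.94% of calls were false.

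Members and lists were chosen with earlier results of these data known. Values per library are given for members past the threshold and the 12 of highest mean CPM, and also, chosen after their values were seen, for Ccl3, Ccl8, Ccl11, Ccl24 and Ccr1. Of the signalling genes, up to 3 per direction with the smallest p are named, and some genes that these rules take are not reported here; Cmklr1, Rarres2, Cd79b, Csf3r, Cd4 and Gzma were named after their values were seen.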

Additional observations from a re-analysis of the deposited data

Results flagged for a closer look

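Each of the 23 members given by library was examined in both groups for a library far from the other 3 (Dixon's criterion), 46 groups in all, and 2 stood out. Chance flags about 1 in 20 groups. Ccl2 was at 167.2 CPM in Vehicle replicate 3, and the next Vehicle library was at 115.1 CPM, a gap of 0.858 of the group's range. Ccl5 was at 2.80 CPM in Aldara replicate 3, and the next Aldara library was at 1.49 CPM, a gap of 0.837 of the range.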

How the results depend on the processing

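Against 4 members rising and 3 falling, DESeq2 gave 8 and 6 and the replicate block 8 and 7, while leaving out 1 library gave 2 to 7 rising and 2 to 3 falling. The lowest rising count came without Vehicle replicate 1 or Aldara replicate 3, and the highest without Aldara replicate 1. Over all tested genes 703, 658 and 1405 rose in these fits, in that order, so the member counts moved along with all calls. Falling calls over all tested genes were 323 to 664 across the fits without 1 library. Upper-quartile and RLE factors called the same 7 members, although over all genes upper-quartile factors moved the calls from 1171 higher and 647 lower to 979 and 990. Limma-voom called 3 rising and 4 falling, beside 1031 and 552 of all tested genes, and no filter 5 and 3, beside 1112 and 571. Signalling genes falling went from 1 to 3 with upper-quartile factors, 2 with DESeq2, 4 with the replicate block and 0 to 2 without 1 library (0 without Vehicle replicate 2 or Aldara replicate 3, 2 without Vehicle replicate 3 or Aldara replicate 1). The cause of these shifts was not tested. The block ended none of the 7 calls, and its added calls are in the counts above. Among 22 named genes and 14 alternatives, the direction turned once, for Cxcr4, whose log2 fold change spanned −0.0078 to 0.253 over the fits without 1 library. Cxcl13, Cxcl15 and Cxcl9 passed in all 14. Depth limits the 15 members that were kept but not tested, at 15 to 145 counts each. Without the filter 1 of them passed, Ccr3, which also passed in some of the fits without 1 library. Those fits reuse the same libraries and are no separate support. For the others a difference could have been missed at this depth.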
